A study of Mus musculus with 6 samples.

Results

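The kinesin motor genes were followed in mouse embryonic fibroblasts (C57BL/6), a cultured cell type that makes connective tissue matrix. Members were the gene symbols of the count table that begin with Kif followed by a digit, which gave 38 of 24062 symbols. They were divided by known role into 12 mitotic kinesins, 15 cargo transport kinesins, 10 other kinesins and 1 pseudogene, Kif4-ps, which encodes no motor. The p27OE group had 3 libraries from cells given p27 by lentivirus, and the EV control group had 3 libraries, all taken at day 10 of the experiment. Cdkn1b is the gene of p27, a protein that binds and blocks cyclin-dependent kinases and so halts division. The sample titles and the protocol call the p27OE cells senescent, whereas the series text calls the cells of the study non-senescent, so the groups are named here by construct alone. The labels do not name the promoter of the vector, and nothing in them tells whether the replicates were grown or infected separately. P-values therefore measure only the spread between these samples, which may be technical.

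Kinesins are motor proteins that use ATP to move along microtubules or to take microtubule ends apart. In dividing cells a set of them builds the spindle, moves chromosomes to its middle and organises the final separation of the daughter cells, and most of these genes are transcribed mainly in the later part of the cell cycle. A second set carries vesicles, mitochondria, receptors and the building material of cilia through the cytoplasm of cells whether they divide or not. Fibroblasts use both kinds, while several transport kinesins are best known from neurons.

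The stretches around the annotated transcription starts are shown first, because the windows of the mitotic and transport genes differed in a short motif. The cell cycle homology region, TTTGAA, is an element through which the DREAM complex and its MuvB core are known to act on genes of late cell cycle phases, often together with an upstream CCAAT box. RefSeq windows (GRCm38.p6) of 300 bases, from 250 bases before the start, were matched by symbol for 31 of the 38 members, of which 29 had enough reads to be tested. Kif4-ps, Kif5a, Kif5b, Kif13b, Kif19a, Kif20a and Kif21b were not analysed here for motifs. Each line below runs from base −120 to base 49, with the annotated start at base 0, and capitals mark the cell cycle homology region (TTTGAA, or its variant TTTAAA) and the CCAAT box. A match on the other strand reads TTCAAA for the first motif. For the CCAAT box it reads ATTGG. The mitotic genes Kif11, Kif22, Kif23, Kif18b and Kif20b are shown as examples with TTTGAA near the start, Kif18a as the tested mitotic gene without it, and Kif1c and Kif3b as transport genes.
Kif11: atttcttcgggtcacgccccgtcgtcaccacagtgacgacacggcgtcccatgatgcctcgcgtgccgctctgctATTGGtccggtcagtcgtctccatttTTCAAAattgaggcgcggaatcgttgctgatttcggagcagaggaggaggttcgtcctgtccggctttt
Kif22: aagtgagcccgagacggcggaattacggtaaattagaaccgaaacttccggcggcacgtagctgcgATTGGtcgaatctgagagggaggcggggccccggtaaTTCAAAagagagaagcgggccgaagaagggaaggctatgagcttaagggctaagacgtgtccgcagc
Kif23: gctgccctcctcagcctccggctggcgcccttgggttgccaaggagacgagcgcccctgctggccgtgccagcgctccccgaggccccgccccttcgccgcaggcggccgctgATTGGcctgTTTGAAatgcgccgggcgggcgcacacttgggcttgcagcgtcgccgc
Kif18b: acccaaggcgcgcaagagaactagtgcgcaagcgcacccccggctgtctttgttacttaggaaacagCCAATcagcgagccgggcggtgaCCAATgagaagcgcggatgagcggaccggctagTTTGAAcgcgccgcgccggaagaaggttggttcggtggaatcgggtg
Kif20b: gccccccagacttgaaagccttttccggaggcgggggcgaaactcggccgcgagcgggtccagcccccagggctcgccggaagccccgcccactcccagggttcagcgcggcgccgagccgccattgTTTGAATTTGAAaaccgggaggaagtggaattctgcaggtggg
Kif18a: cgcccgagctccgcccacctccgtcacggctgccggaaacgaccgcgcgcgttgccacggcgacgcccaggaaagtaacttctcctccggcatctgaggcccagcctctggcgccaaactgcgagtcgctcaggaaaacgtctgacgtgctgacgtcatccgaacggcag
Kif1c: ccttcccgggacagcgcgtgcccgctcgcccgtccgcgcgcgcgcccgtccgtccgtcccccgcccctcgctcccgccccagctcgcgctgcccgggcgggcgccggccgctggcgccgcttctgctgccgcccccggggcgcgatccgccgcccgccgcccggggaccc
Kif3b: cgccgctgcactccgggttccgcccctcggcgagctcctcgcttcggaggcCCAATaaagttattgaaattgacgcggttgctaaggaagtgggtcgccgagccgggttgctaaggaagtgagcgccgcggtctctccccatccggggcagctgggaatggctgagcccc

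These stretches lie on the plus strand at chr19:37376262-37376431 (Kif11), chr19:34922238-34922407 (Kif20b), chr2:109280618-109280787 (Kif18a), chr11:70700428-70700597 (Kif1c) and chr2:153291296-153291465 (Kif3b). They lie on the minus strand at chr7:127042371-127042540 (Kif22), chr9:61946750-61946919 (Kif23) and chr11:102925075-102925244 (Kif18b). Each holds the region just upstream of the gene together with the first bases of its transcript.

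TTTGAA, on either strand, was found in the windows of 9 of 10 tested mitotic kinesins, of 1 of 11 tested transport kinesins and of 2 of 8 other kinesins. Of all 32851 windows in the table, 17.9% held it, and of the 10416 tested genes with a window 14.1% held it in at least 1 window. The match among transport genes lay in the second of the annotated start windows of Kif1a. TTTAAA, a variant of the element that reads the same on both strands, was in 2 of 10 mitotic genes (Kif14 and Kif2c) and in 0 of 11 transport genes. It was in 13.2% of all windows and in 11.2% of the tested genes with a window. A CCAAT box on either strand was present in 6 of 10 mitotic, 3 of 11 transport and 4 of 8 other genes. The share was 37.4% of all windows and 42.6% of the tested genes with a window. A window with CCAAT and with TTTGAA or TTTAAA was found for 6 of 10 mitotic, 0 of 11 transport and 2 of 8 other genes. Such windows made up 10.7% of all windows and were found for 9.15% of the tested genes with a window. In Kif11 the CCAAT match began 45 bases upstream of the start and the TTTGAA match 19 bases upstream, and in Kif22 the matches nearest to the start began 54 and 17 bases upstream. In Kif18b the TTTGAA match began at base 3 and the CCAAT matches 53 and 30 bases upstream, while in Kif20b a pair of adjacent TTTGAA matches began at bases 7 and 13. Not all matches lay near the start: the only TTTGAA match began 103 bases upstream in Kif2c and 228 bases upstream in Kif14. Kif14 also held TTTAAA 42 bases upstream. An E2F-type sequence, GGCGGGAA on either strand, was in 0 of 10 mitotic, 0 of 11 transport and 1 of 8 other genes. It was in 2.19% of all windows and in 4.59% of the tested genes with a window. No match overlapped another in the stretches shown, and a match is a description of letters, not a bound site.

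**Figure D1:**
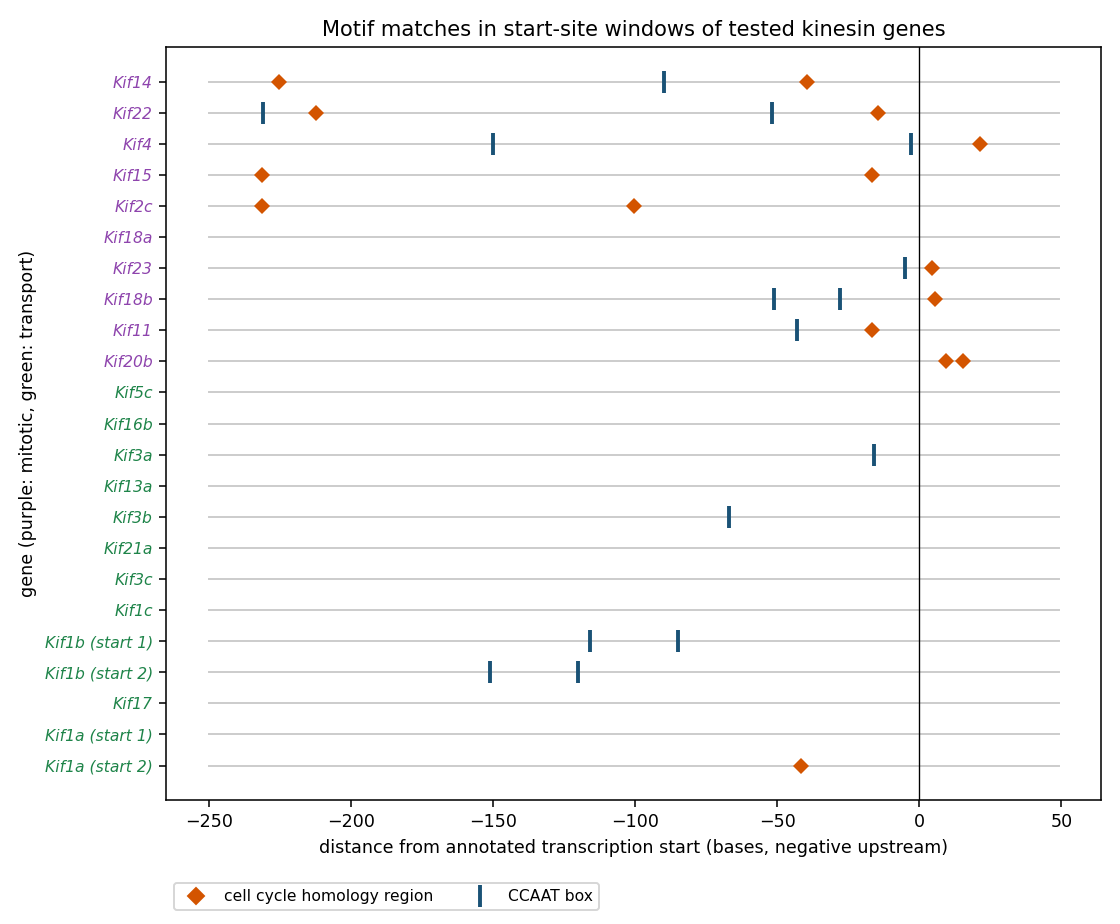
Positions of motif matches (x axis, bases from the annotated start) in the 300-base windows of the tested mitotic (purple names) and transport (green names) kinesin genes, with a row per annotated start. Orange diamonds stand for TTTGAA or TTTAAA and blue bars for CCAAT, on either strand; diamonds occur in 9 of 10 mitotic genes and in 1 of 11 transport genes, the second start of Kif1a.

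Library totals ran from 39183624 to 61219345 counts, and 13990 genes, among them 34 of the 38 kinesin members, had enough reads to be tested. The remaining members were Kif2b, Kif12 and Kif4-ps, which had 0 counts in all 6 libraries, and Kif19a, with 2 to 10 counts per library. A count of 0 allows up to 3 counts in a library, or 0.075 CPM in the shallowest, counting error only. CPM, the field's usual depth-scaled read count, divides a gene's count by the effective size of its library. Cdkn1b stood at 167, 232 and 337 CPM in p27OE 1, 2 and 3 and at 43.9, 31.5 and 32.3 CPM in EV control 1, 2 and 3. The libraries were not alike within groups: 4 Y-linked genes (Uty, Kdm5d, Eif2s3y and Ddx3y) summed to 1.95, 57.1 and 137 CPM in p27OE 1, 2 and 3 and 0.125, 126 and 124 CPM in EV control 1, 2 and 3, which set both libraries numbered 1 apart. Results are therefore also given from a fit adjusted for this level, called the Y-adjusted fit, or without both of these libraries. That removal keeps p27OE 2, whose Y-linked level lay between those of p27OE 1 and 3. EV control 2 and 3 were far closer to each other than other libraries of a group. A mean chi-square per gene, which grows with the difference between counts, was 6.51 for this pair and 55.1 to 188 for the other same-group pairs. All 10 fibroblast markers were expressed, with a summed level of 45521 to 47801 CPM in p27OE and 41155 to 59331 CPM in EV control, against 19.4 to 35.8 CPM in p27OE and 18.1 to 88.9 CPM in EV control for 11 macrophage markers. The 6 epithelial, 6 endothelial and 6 multiciliated cell markers summed to at most 8.15, 7.73 and 7.25 CPM in any library.

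Transcripts of the mitotic kinesins were lower in p27OE cells. For all 11 measured members every p27OE library lay below every EV control library, and p27OE means were 47.5% to 61.6% of the EV control means. Kif2a, counted among the other kinesins although it also acts on the spindle, overlapped between groups, at 86.2% of its EV control mean. None of the 11 passed across all genes with edgeR's quasi-likelihood test (adjusted p = 0.0521 to 0.103), although all 11 had an unadjusted p under 0.05. With DESeq2 11 of 11 were called lower, beside 8.41% of all genes lower and 16.6% in either direction. With limma-voom 2 were called lower, beside 420 of 13990 genes called in either direction, 31.9% of them lower. Of all 13990 genes, 2.61% were called by edgeR, 0.843% in the lower direction, and 26% had an unadjusted p under 0.05, 12.9% with a lower p27OE level. Groups that did not overlap with p27OE lower were found for 16.5% of all genes (33.3% in either direction). The median log2 fold change was −0.86 for the 11 mitotic members and 0.01 for all tested genes. In bulk RNA, fewer dividing cells and less RNA per dividing cell cannot be told apart.

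Kif11 encodes Eg5, the motor that pushes the spindle poles apart. It stood at 66.3, 54.2 and 33.9 CPM in p27OE 1, 2 and 3, against 81.9, 93.7 and 91.8 CPM in EV control 1, 2 and 3. Its log2 fold change was −0.79 ± 0.23 (SE; adjusted p = 0.0972, edgeR). Kif15, which helps to keep the spindle bipolar beside Kif11, was at 22.5, 20.4 and 11.6 CPM in p27OE and 31.9, 35.0 and 34.2 CPM in EV control. Both genes had their lowest value in p27OE 3 and their lowest control value in EV control 1, and the groups stayed apart.

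The chromokinesins carry chromosome arms towards the middle of the spindle. Kif22 (Kid) was at 42.1, 35.1 and 22.5 CPM in p27OE and 56.9, 70.7 and 67.3 CPM in EV control, a log2 fold change of −0.97 ± 0.23 (SE; adjusted p = 0.0683, edgeR). Kif4, which also sets the length of the central spindle, was at 35.9, 36.3 and 22.0 CPM in p27OE and 50.3, 65.5 and 61.4 CPM in EV control. In both, p27OE 3 was at less than the level of any other library by a clear margin, and EV control 1 was the control closest to the p27OE range. Exons of Pdzd11, on the opposite strand, cover 15.1% of the exon length of Kif4 in GENCODE M21, and reads from there cannot be assigned without a stated strand setting.

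Members that act on microtubule ends were lowest in p27OE 3 and, among controls, in EV control 1. Kif2c (MCAK), which corrects faulty attachments at centromeres, was at 45, 41.3 and 28.0 CPM in p27OE and 56.6, 74.1 and 77.7 CPM in EV control. Kif18a, which damps chromosome movements at the metaphase plate, had the smallest p of the mitotic members: 9.44, 8.35 and 6.25 CPM in p27OE against 13.6, 15.1 and 14.9 CPM in EV control, a log2 fold change of −0.86 ± 0.17 (SE; adjusted p = 0.0521, edgeR). Kif18b, which acts on astral microtubules, was at 20.2, 19.3 and 13.1 CPM in p27OE and 27.4, 32.2 and 31.7 CPM in EV control. Kif18a was the least abundant of these 3 genes per exon length, at 0.815 ± 0.165 RPKM in p27OE and 1.48 ± 0.0813 RPKM in EV control (SD, n = 3 each), where RPKM is CPM per kilobase of exon. Kif2b, a relative of Kif2c, had no reads.

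The kinesins of the central spindle and of cytokinesis were also lowest in p27OE 3. Kif20a (MKLP2), which brings the Aurora B complex to the central spindle, was the most abundant mitotic member at 101, 88.2 and 62.9 CPM in p27OE and 118, 166 and 157 CPM in EV control. The gap between its highest p27OE library and its lowest EV control library was small, and 29.3% of its exon length is shared with Cdc23 on the opposite strand. Kif23 (MKLP1), the motor subunit of centralspindlin, was at 56.4, 52.8 and 36.2 CPM in p27OE and 74.1, 92.2 and 90.9 CPM in EV control. Kif20b, needed for the last cut between daughter cells, was at 34.3, 30.9 and 20.4 CPM in p27OE and 38.4, 50.4 and 50.1 CPM in EV control. It had the smallest difference of the class, a log2 fold change of −0.70 ± 0.21 (SE; adjusted p = 0.103, edgeR).
Kif14, which binds citron kinase at the midbody, had the largest difference of the class, −1.07 ± 0.23 on the log2 scale (SE; adjusted p = 0.0629, edgeR). It was at 17.2, 12.9 and 8.70 CPM in p27OE and 26.8, 28.6 and 26.3 CPM in EV control (chromosome 1, 136466343 to 136531511, GRCm38). The standard errors of the class, 0.17 to 0.24, were of the size of the differences between its members, so an order among them was not resolved.

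**Figure D2:**
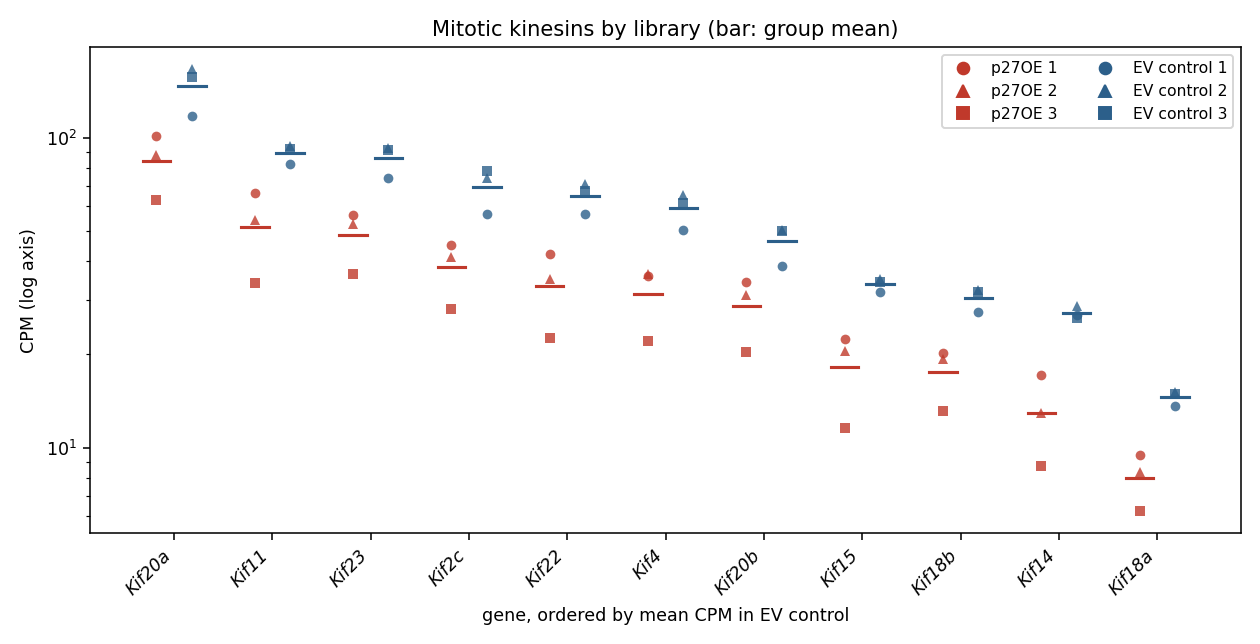
CPM (log axis) of the 11 measured mitotic kinesins in each library, with p27OE in red to the left of EV control in blue; symbols give the library number and bars the group means. For every gene the p27OE points lie below the EV control points, and p27OE 3 (square) is the lowest of all.

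The depth of the difference varied among the p27OE libraries. All 11 measured mitotic genes were lowest in p27OE 3, and 10 were highest in p27OE 1 among p27OE libraries; in EV control, 10 were lowest in EV control 1 and 10 highest in EV control 2. Between the libraries of low Y-linked level, p27OE 1 and EV control 1, the median log2 difference was −0.43, with a range of −0.64 to −0.16. Between p27OE 3 and the mean of EV control 2 and 3, all of high level, it was −1.44, with a range of −1.65 to −1.26. All 11 genes were below 0 in both differences, while the median over all tested genes was −0.00 and 0.03. p27OE 3 also had the highest Cdkn1b, at 337 CPM, and p27OE 1 the lowest of its group, at 167 CPM. Within p27OE the Y-linked level had the same order of libraries, and the part of either in this spread was not tested. Here and below, a gene that fell or rose is one called lower or higher in p27OE at an adjusted p under 0.05. In the Y-adjusted fit, 11 of 11 mitotic kinesins fell (edgeR adjusted p = 0.00387 to 0.0276), beside 16% of all genes that fell and 34% that were called in that model. Without both libraries numbered 1 the median log2 fold change was −1.11 and 11 of 11 fell, beside 8.9% of all genes that fell and 16.7% that were called. Without EV control 1 alone, 6 of 11 were called lower, beside 6.75% of all genes called lower and 12.9% called in either direction. All 11 mitotic genes had log2 fold changes below 0 in that fit as well. Both omissions leave EV control 2 and 3, the most alike pair, as the only controls, so the control spread behind these calls is that of this pair.

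Proliferation markers and spindle partners of these motors had values of a similar size. The summed level of Mki67, Top2a, Ccnb1, Ccna2 and Cdk1 was 554, 478 and 308 CPM in p27OE 1, 2 and 3 and 780.4, 930.2 and 906 CPM in EV control 1, 2 and 3, so that p27OE 3 was lowest here as well. None of these 5 genes passed with edgeR (adjusted p = 0.0577 to 0.0769), all 5 had an unadjusted p under 0.05, beside 12.9% of all genes in that direction, and all 5 fell in the Y-adjusted fit, beside 16% of all genes. Their median log2 fold change was −0.99. All 16 spindle partner genes lay below 0 (median log2 fold change −0.77), beside 48.2% of all genes. In 14 of them the groups did not overlap, beside 16.5% of all genes in that direction. Cit, which encodes citron kinase, the partner of Kif14, fell by 0.97 ± 0.14 on the log2 scale (SE; adjusted p = 0.0348, edgeR), with 11.4, 10.9 and 8.72 CPM in p27OE and 17.9, 20.7 and 22.0 CPM in EV control. It was the 1 partner gene of 16 that passed over all genes, beside 0.843% of all genes that fell. Its call was lost when any library other than EV control 1 was left out (edgeR adjusted p = 0.0707 to 0.189), with log2 fold changes between −1.06 and −0.86 over all 6 omissions. Each omission that lost the call left only 1 or 2 called genes among all tested genes. Tpx2, a spindle assembly factor, and Aurka, the kinase it activates, had log2 fold changes of −0.77 ± 0.17 and −0.90 ± 0.20 (SE; edgeR adjusted p = 0.0664 and 0.0667). In the Y-adjusted fit 14 of 16 partner genes fell, beside 16% of all genes.

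Cargo transport kinesins went the other way, with small differences and an exception. Of 15 measured members 14 had a log2 fold change above 0, beside 7244 of all 13990 tested genes, and the median of the class was 0.25. With edgeR 0 were called higher, with DESeq2 4 and with limma-voom 0. An unadjusted p under 0.05 was found for 5 of the 14, beside 13.1% of all genes in that direction. Among all genes 1.77% rose with edgeR and 8.19% with DESeq2. Groups that did not overlap with p27OE higher were found for 5 of 15 members (Kif1a, Kif1b, Kif1c, Kif3c and Kif13a), beside 16.8% of all genes. The only kinesin that passed edgeR's test over all genes was Kif21b, which fell. Kif21b and the mitotic Kif14 were the 2 of 34 tested kinesins at least 2-fold lower in p27OE, beside 1.61% of all genes.

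Kif21b (chromosome 1, 136131389 to 136177998, GRCm38) encodes a motor of neurons and immune cells that also controls microtubule growth. It was at 12.7, 16.2 and 19.5 CPM in p27OE 1, 2 and 3 and at 39.3, 34.8 and 29.9 CPM in EV control 1, 2 and 3. The groups were well separated, and the log2 fold change was −1.10 ± 0.18 (SE; adjusted p = 0.0424, edgeR), a p27OE mean at 46.5% of the EV control mean. With any library other than EV control 1 left out, only 1 or 2 of all tested genes were called. The Kif21b call was lost in each case (edgeR adjusted p = 0.0707 to 0.202), while the log2 fold change stayed between −1.26 and −0.98. The order of its libraries was not that of the mitotic genes. Kif21b differed by −1.63 between p27OE 1 and EV control 1 on the log2 scale and by −0.73 between p27OE 3 and the mean of EV control 2 and 3. Without both libraries numbered 1 it fell by 0.88 (edgeR adjusted p = 0.025). Beside 48.2% of all genes, all 11 macrophage markers had a negative log2 fold change with the group alone in the model. In the Y-adjusted fit 2 fell, beside 16% of all genes. Their summed level was 19.4, 28.7 and 35.8 CPM in p27OE 1, 2 and 3 and 88.9, 23.2 and 18.1 CPM in EV control 1, 2 and 3. The part of such cells in Kif21b was not tested. Without EV control 1 the Kif21b value was −1.02 (edgeR adjusted p = 0.0303).
Its paralog Kif21a, mutated in an inherited paralysis of eye muscles in humans, was at 15.2, 15.2 and 11.8 CPM in p27OE and 14.1, 10.6 and 10.7 CPM in EV control. The groups overlapped, and its log2 fold change was 0.25 ± 0.16 (SE; adjusted p = 0.38, edgeR).

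Of the transport members Kif1a had the highest log2 fold change. Kif1a (chromosome 1, 93015464 to 93101951, GRCm38), the motor of synaptic vesicle precursors in neurons, was at 60.9, 77.1 and 137 CPM in p27OE 1, 2 and 3 and at 33.3, 40.3 and 42.4 CPM in EV control 1, 2 and 3. All p27OE libraries were above all EV control libraries, and p27OE 3 was far above the rest. The log2 fold change was 1.25 ± 0.30 (SE; adjusted p = 0.0712, edgeR), which did not pass, and between the low-level and the high-level libraries it was 0.87 and 1.73. In the Y-adjusted fit it rose by 1.28 ± 0.15 (SE; adjusted p = 0.00169, edgeR), and without both libraries numbered 1 by 1.35 (edgeR adjusted p = 0.0349). Of 9 neural markers, 5 could be tested. The summed level of all 9 was 199, 202 and 164 CPM in p27OE 1, 2 and 3 and 162, 131 and 129 CPM in EV control 1, 2 and 3, most of it from Stmn2, Tubb3 and Map2; Snap25 had 0 counts in all libraries, and none of the 5 passed. Stmn2 did not overlap between groups, at 97.2, 102.8 and 70.0 CPM in p27OE 1, 2 and 3 and 68.4, 47.5 and 46.2 CPM in EV control 1, 2 and 3, and it rose by 0.67 in the Y-adjusted fit (edgeR adjusted p = 0.00212). Within p27OE the neural sum was lowest in p27OE 3, and the part of neural cells in the Kif1a values was not tested. The 6 skeletal muscle markers summed to 78.2, 152 and 312 CPM in p27OE 1, 2 and 3 and 39.3, 124 and 117 CPM in EV control 1, 2 and 3, nearly all from Des and Acta1, while Myf5 and Ckm had 0 counts and Myod1 and Myog were at or near 0. Neither Des nor Acta1 passed over all libraries, but both rose in the Y-adjusted fit, beside 18% of all genes. The rises were 0.90 (Des, edgeR adjusted p = 0.00156) and 1.44 (Acta1, edgeR adjusted p = 0.000336) on the log2 scale. The part of such cells in the Kif1a values was not tested.
Kif1c, which carries integrins and secretory vesicles, was the most abundant kinesin in both groups. It was at 400.5, 407 and 457 CPM in p27OE and 292, 334 and 349 CPM in EV control, with a log2 fold change of 0.37 ± 0.10 (SE; adjusted p = 0.0836, edgeR). Kif1b, a carrier of mitochondria and synaptic vesicle precursors, was at 168, 170.4 and 223 CPM in p27OE and 147, 139 and 143 CPM in EV control. Neither gene overlapped between groups, and both rose in the Y-adjusted fit.

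The Kif3 genes encode the heterotrimeric motor of intraflagellar transport, which builds cilia. Kif3a was at 41.4, 38.7 and 41.9 CPM in p27OE and 39.3, 32.5 and 33.2 CPM in EV control. Its partner Kif3b was at 49.7, 56.8 and 68.3 CPM in p27OE and 47.5, 48.2 and 51.1 CPM in EV control. Both overlapped between groups, by a single control library for Kif3a (EV control 1) and a single p27OE library for Kif3b (p27OE 1). Kif3c, an alternative partner of Kif3a found mostly in neurons, was at 32.6, 34.4 and 39.9 CPM in p27OE and 27.4, 26.7 and 29.5 CPM in EV control, with no overlap and a log2 fold change of 0.35 ± 0.10 (SE; adjusted p = 0.0887, edgeR). The transcript 1110002L01Rik on the opposite strand covers 35.3% of the exon length of Kif3c. Kif17, a related motor of dendrites and cilia, rested on 5 to 27 counts per library and overlapped widely, at 0.541, 0.554 and 0.12 CPM in p27OE and 0.4, 0.0992 and 0.154 CPM in EV control.

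The Kif5 genes encode the heavy chains of conventional kinesin. Kif5b, the form of most tissues, was at 266, 287 and 374 CPM in p27OE and 254, 299 and 303 CPM in EV control. The neuronal forms were rarer: Kif5c was at 7.01, 8.08 and 12.1 CPM in p27OE and 5.88, 10.8 and 8.76 CPM in EV control, and Kif5a at 2.47, 3.96 and 4.37 CPM in p27OE and 2.30, 2.91 and 2.68 CPM in EV control. All of these overlapped between groups, with log2 fold changes of 0.11 ± 0.15 (Kif5b), 0.09 ± 0.29 (Kif5c) and 0.45 ± 0.26 (Kif5a; SE, edgeR adjusted p from 0.326 to 0.870).

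The remaining transport members act on endosomes and the Golgi apparatus. Kif13a, which positions recycling endosomes, was at 58.2, 56.5 and 60.7 CPM in p27OE and 55.3, 45.6 and 49.7 CPM in EV control, apart by a narrow margin. Kif13b, which binds the scaffold protein Dlg, was at 14.6, 12.2 and 14.5 CPM in p27OE and 12.9, 7.71 and 8.63 CPM in EV control, and EV control 1 alone reached the p27OE range. Without EV control 1 Kif13b rose by 0.74 on the log2 scale (edgeR adjusted p = 0.0303) and Kif3a by 0.29 (edgeR adjusted p = 0.048), beside 6.13% of all genes; Kif13b was at 0.50 over all libraries (edgeR adjusted p = 0.193). Kif16b, a motor of early endosomes, was at 21.2, 18.2 and 17.8 CPM in p27OE and 21.1, 15.2 and 15.6 CPM in EV control, with the libraries numbered 1 highest in both groups.

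**Figure D3:**
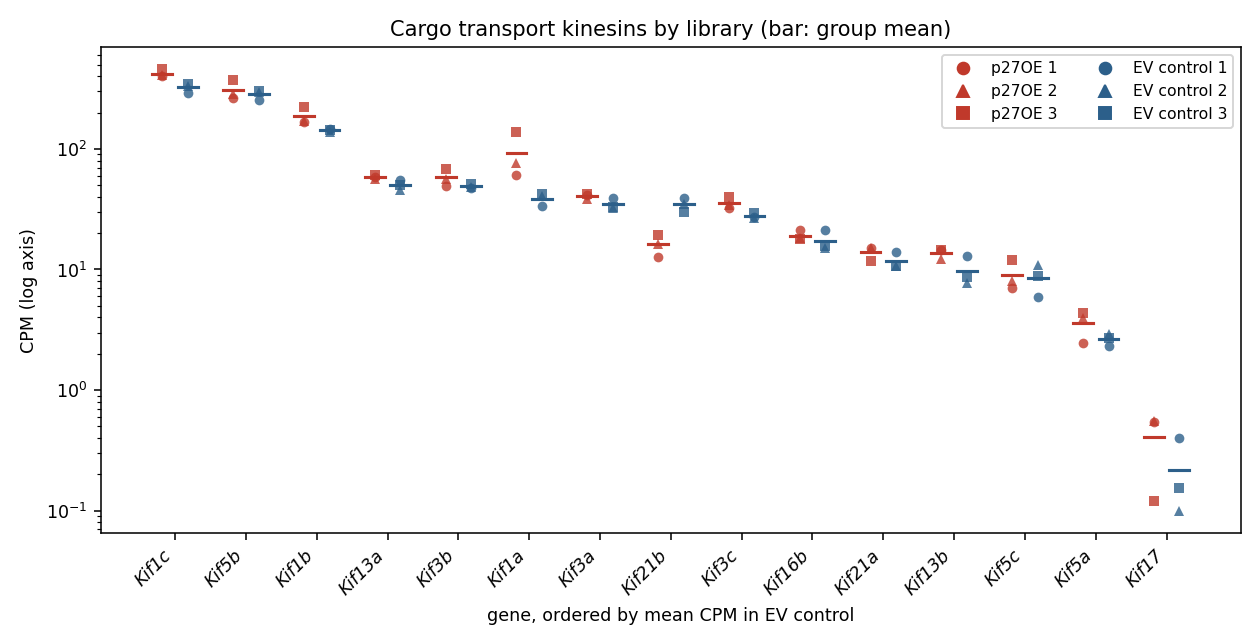
CPM (log axis) of the 15 cargo transport kinesins in each library, with p27OE in red to the left of EV control in blue; symbols give the library number and bars the group means. Kif21b lies lower in p27OE and Kif1a higher, while Kif5b, Kif16b and Kif5c overlap between the groups.

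In the Y-adjusted fit 6 transport kinesins rose (Kif1a, Kif1b, Kif1c, Kif3b, Kif3c and Kif13b) and Kif21b fell, beside 18% of all genes that rose and 16% that fell. The median of the class was 0.28 in that model. Without both libraries numbered 1, Kif1a and Kif13b rose and Kif21b fell, beside 7.81% and 8.9% of all genes. Between the low-level libraries the median difference of the class was 0.11, with 14 of 15 members above 0, and between the high-level libraries it was 0.35, with 13 of 15 above 0.

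**Figure D4:**
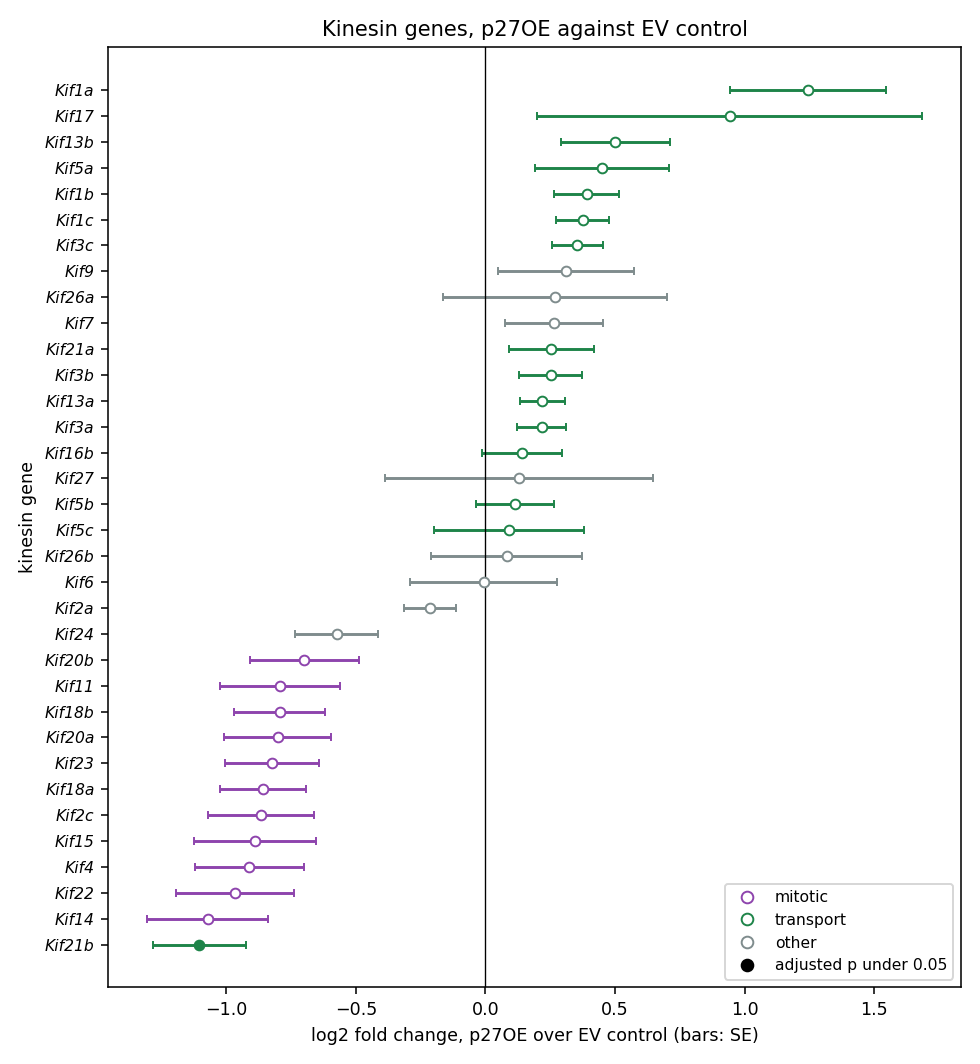
Log2 fold changes of p27OE over EV control for the 34 tested kinesin genes (points; bars are standard errors), coloured by class and ordered by value. The filled point, Kif21b, is the 1 gene with an edgeR adjusted p under 0.05; the 11 mitotic genes lie between −1.07 and −0.70 and 14 of 15 transport genes above 0.

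Subunits and adaptors that tie transport kinesins to cargo included 1 gene that passed among 18, beside 1.77% of all genes that rose. Klc4, a kinesin light chain, rose by 0.74 ± 0.13 on the log2 scale (SE; adjusted p = 0.0451, edgeR), with 23.4, 22.7 and 23.0 CPM in p27OE and 16.2, 11.8 and 13.4 CPM in EV control. The Klc4 call was likewise lost without any library other than EV control 1 (edgeR adjusted p = 0.0917 to 0.215), with log2 fold changes between 0.64 and 0.85. Those omissions left only 1 or 2 called genes among all tested genes. Spag9, a scaffold between kinesin and stress kinases, and Kifap3, the adaptor of the Kif3 motor, had log2 fold changes of 0.34 ± 0.09 and 0.32 ± 0.09 (SE; edgeR adjusted p = 0.0822 and 0.0863). Of 18 tested genes of this list 12 had a value above 0, beside 7244 of all 13990 tested genes, and the median of the list was 0.10. In the Y-adjusted fit 6 of the list rose and 0 fell, beside 18% and 16% of all genes. Among kinesin genes with other symbols, Cenpe, the motor that brings late chromosomes to the metaphase plate, was at 63.3, 53.5 and 41.3 CPM in p27OE and 77.8, 87.5 and 89.7 CPM in EV control. Its log2 fold change was −0.69 ± 0.16 (SE; adjusted p = 0.0669, edgeR) and was smaller in size than that of any measured mitotic member. Kifc1 and Kifc5b, minus-end motors of the spindle with near-identical sequences, were at −0.53 ± 0.24 and −0.68 ± 0.19, and reads may be split between them.

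The other kinesins had a median log2 fold change of 0.11 over 8 measured members, and 0 passed with edgeR or limma-voom, while 1 had an unadjusted p under 0.05, beside 12.9% of all genes in its direction, and 1 fell with DESeq2, beside 8.41% of all genes. Kif24, a motor of centrioles that holds back cilium formation, was at 3.40, 3.32 and 3.0 CPM in p27OE and 4.25, 5.18 and 5.05 CPM in EV control, with no overlap and a log2 fold change of −0.57 ± 0.16 (SE; adjusted p = 0.0889, edgeR). Kif2a, a relative of Kif2c active in neurons and on the spindle, was at 43.5, 46.5 and 49.1 CPM in p27OE and 47.0, 57.3 and 57.1 CPM in EV control; 19.2% of its exon length is shared with Dimt1 on the opposite strand. Both fell in the Y-adjusted fit, beside 16% of all genes. Kif7, a regulator of Hedgehog signalling at the tip of the cilium, and Kif26b, which acts in noncanonical Wnt signalling, had log2 fold changes of 0.27 ± 0.19 and 0.08 ± 0.29, with overlapping groups. Kif6, Kif9, Kif26a and Kif27 lay below 2 CPM in every library, with a highest value of 1.75 CPM.

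Levels of different genes can be compared per exon length. Kif1c led in both groups, at 57.9 ± 4.2 RPKM in p27OE and 44.7 ± 4.05 RPKM in EV control (SD, n = 3 each). Kif5b followed at 38.7 ± 7.19 RPKM in p27OE and 35.8 ± 3.45 RPKM in EV control, and Kif20a at 19.4 ± 4.51 RPKM in p27OE and 33.8 ± 5.88 RPKM in EV control. Kif5b and Kif20a did not differ beyond their spread in EV control. Kif2c was at 8.73 ± 2.05 RPKM in p27OE, rank 8 of 34, and at 15.9 ± 2.59 RPKM in EV control, rank 4. Kif1a was at 9.83 ± 4.32 RPKM in p27OE, rank 7, and at 4.15 ± 0.511 RPKM in EV control, rank 16.
Mitotic members made up 33.3%, 30.1% and 19.5% of the summed kinesin RPKM in p27OE 1, 2 and 3, and 41.9%, 46.9% and 45.6% in EV control 1, 2 and 3. Transport members made up 60.1%, 63.6% and 74.6% in p27OE and 51.2%, 47.6% and 49% in EV control. Such shares add up to a fixed total, so a lower share of one class raises that of the others. The summed transport RPKM itself was 145, 151 and 183 in p27OE 1, 2 and 3 and 124, 131 and 135 in EV control 1, 2 and 3. Most of it came from Kif1c and Kif5b. Group means were 27.6% ± 7.20 in p27OE and 44.8% ± 2.60 in EV control for mitotic members, and 66.1% ± 7.53 in p27OE and 49.3% ± 1.84 in EV control for transport members (SD, n = 3 each). The summed mitotic RPKM was 0.553, 0.473 and 0.262 of the summed transport RPKM in p27OE 1, 2 and 3 and 0.818, 0.987 and 0.930 of it in EV control 1, 2 and 3. The mitotic sum was thus below the transport sum in all 6 libraries, and furthest below it in p27OE 3.

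**Figure D5:**
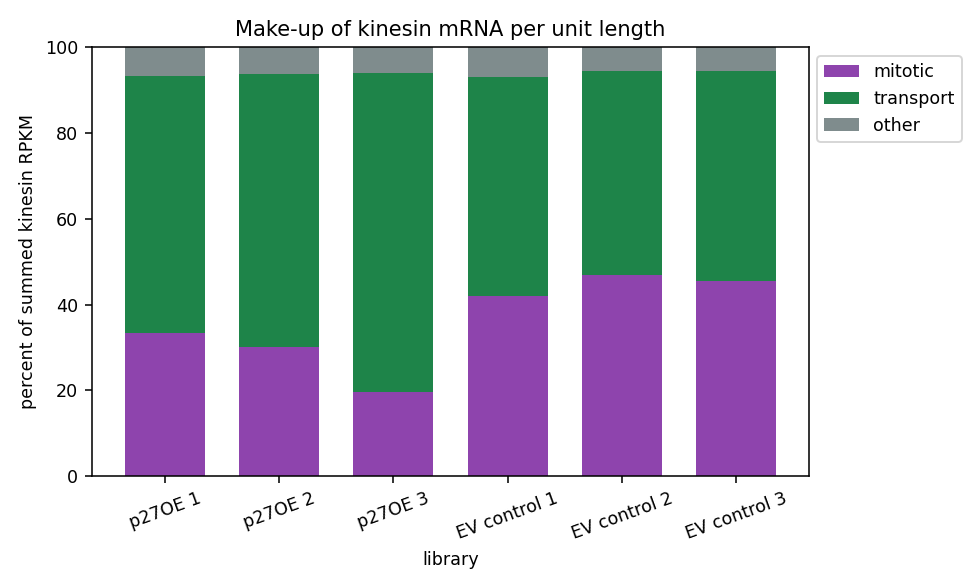
Share of the summed RPKM of the 34 tested kinesin genes (y axis, percent) held by mitotic, transport and other members in each library, p27OE at left and EV control at right. Mitotic members hold 19.5% to 33.3% in p27OE libraries and 41.9% to 46.9% in EV control libraries.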

How the data were processed

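Per the labels' protocols, column-purified RNA went into TruSeq RNA v2 libraries. The submitters' processing notes list, in no order, the mm10 build, featureCounts 1.4.6 of Subread, Bowtie2 2.2.6 and TopHat2 2.0.14. For annotation, strand setting and filters, the sources used here give nothing. The authors deposited raw read counts per gene symbol, 1 column per sample. Every column matched 1 sample by its title.

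Genes passing edgeR's filterByExpr (13990) entered edgeR 4.0.16 in R 4.3.3 (TMM, robust glmQLFit, two-sided glmQLFTest), where the model held the group alone. P-values were adjusted by Benjamini-Hochberg over all genes tested and called under 0.05. CPM used the TMM-scaled library sizes, log2 differences between libraries added 0.05 CPM, and RPKM used the union of exons in GENCODE M21 (GRCm38). Alternatives were DESeq2 1.42.0, limma-voom 3.58.1, scaling by total counts, RLE or upper quartiles, a filter of 1 CPM in 3 libraries or none, a replicate block, the Y-adjusted fit (with summed Y-linked CPM, as a share of the highest library, as covariate), and libraries left out. The fit was also tested on simulated counts, drawn independently for each gene and library, without the structure shared between genes of the real libraries. That test therefore does not bear on how calls change when libraries are left out. Earlier results of these data were known when the members, the lists, the Y-adjusted fit and the removal of both libraries numbered 1 were chosen. Values in every library are given for all measured mitotic and transport members, and for other members called with or without the Y-linked covariate; from each partner list the 3 genes of smallest p are named.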

Additional observations from a re-analysis of the deposited data

How the results depend on the processing

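The median log2 fold changes kept their sign and moved by less than the spread between libraries under every alternative run: mitotic −1.11 to −0.65, transport 0.23 to 0.34, and their difference −1.43 to −0.90. Counts of calls did not hold. Over all genes 365 were called, against 2321 with DESeq2, 4761 in the Y-adjusted fit, 2334 with both libraries numbered 1 left out and 1 to 1827 with a single library left out, the highest without EV control 1. The 1 called kinesin became 17, 20 and 16 under the first 3 of these, and 0 to 11 with a library left out. The count became 2 with 1 CPM in 3 libraries, beside 497 of 12305 genes called. With limma-voom it became 3, beside 420 of 13990 genes called. The 0 called mitotic kinesins became 11 with DESeq2, 11 in the Y-adjusted fit, 11 with both libraries numbered 1 left out, 1 with 1 CPM in 3 libraries, 2 with limma-voom, and 0 to 6 with a library left out. The 0 transport kinesins called higher became 4, 6 and 2 in the first 3 and 0 to 2 with a library left out, and the 1 called lower, Kif21b, 0 to 1. The fits without EV control 1 had only EV control 2 and 3 as controls, the most alike pair. The cause of these shifts was not tested. The replicate number as a block gave 2410 calls over all genes, 17 kinesins, 11 mitotic kinesins lower and 5 transport kinesins higher; deviations from the group means, correlated over genes, gave r = 0.73, 0.092 and 0.59 for same-numbered libraries, and 0.63 for p27OE 3 with EV control 2, so the number was not taken as a pairing. Members near 0 changed sign without a call: Kif6 (0.0055 with limma-voom, 0.24 with both libraries numbered 1 left out, −0.18 to 0.16 with a library left out), Kif26b (−0.092 to 0.47), Kif27 (−0.034 with limma-voom, −0.12 in the Y-adjusted fit, −0.20 with both libraries numbered 1 left out, −0.35 to 0.50), Kif26a (−0.046 with both libraries numbered 1 left out, −0.21 to 0.55), Kif5c (−0.17 to 0.31) and Kif5b (−0.048 to 0.19). Kif17 rests on 5 to 27 counts per library, too few to resolve its difference. With both libraries numbered 1 left out, or 1 CPM in 3 libraries, it was not tested.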

Other observations

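Cytoplasmic dynein and its activator dynactin move cargo towards the microtubule minus end, opposite to the transport kinesins. Of 24 genes of this list all could be tested, and the median log2 fold change was 0.16. In p27OE cells 19 had a value above 0, beside 7244 of all 13990 tested genes. With edgeR 0 passed, and 7 had an unadjusted p under 0.05 with a higher p27OE level, beside 13.1% of all genes in that direction. In 10 every p27OE library lay above every EV control library, beside 16.8% of all genes. The 3 with the smallest p were Dynlrb1, Dctn1 and Dync1li2. Dynlrb1, a dynein light chain, was at 178, 170 and 178 CPM in p27OE 1, 2 and 3 and at 138, 147 and 143 CPM in EV control 1, 2 and 3. Dctn1, the large arm of dynactin, was at 206, 199.8 and 218 CPM in p27OE and at 166, 169 and 179 CPM in EV control. Dync1li2, a light intermediate chain that binds cargo adaptors, was at 189.8, 179 and 179.5 CPM in p27OE and at 159.5, 146 and 153 CPM in EV control. Their log2 fold changes were 0.30 ± 0.07, 0.28 ± 0.07 and 0.26 ± 0.07 (SE; edgeR adjusted p = 0.0664, 0.0820 and 0.0892). In the Y-adjusted fit 14 of 24 rose and 0 fell, beside 18% and 16% of all genes.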
